A study of Mus musculus with 6 samples.

Results

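Potassium channel genes were taken as every gene whose symbol starts with Kcn, which covers the pore-forming subunits, their auxiliary subunits and 3 non-coding transcripts named after them. The rule found 167 probe sets for 84 genes, of 18193 genes that the array names singly. Each gene was represented by its brightest probe set, and 50 of the 84 had a mean of at least 50 in 1 group, the minimum used for testing, against 12213 of the 18193 genes.

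The values come from cortex of bacTRAP mice, in which an S100a10 bacterial artificial chromosome puts a tag on the ribosomes of the cells that use this promoter, so that their ribosome-bound RNA can be pulled down (TRAP). All mice in both groups were constitutive p11 knockouts, p11 being the protein that S100a10 encodes, of line ES691/p11 KO and moved from FVB onto C57BL/6 by 3 to 5 generations of backcrossing. The FLX group (3 arrays) drank fluoxetine, a selective serotonin reuptake inhibitor, at 0.167 mg per ml in 1% saccharin, and the VEH group (3 arrays) drank 1% saccharin, both for 15 to 18 days. The comparison asks what fluoxetine does to ribosome-bound RNA in the absence of p11. The sources used here do not give the age or number of animals behind an array, and the submitters state that the transgene also marks some non-neuronal cells.

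Potassium channels let potassium leave or enter a cell and so set its resting potential, shape its action potentials and limit its firing. Voltage-gated (Kv) channels open on depolarization, inward rectifiers pass current near rest, tandem-pore (K2P) channels carry background leak, and other channels open on intracellular calcium or sodium. In cortical pyramidal cells A-type channels of the Kv4 family act in dendrites, Kv1 channels in axons and Kv7 channels carry the M-current, while astrocytes take up potassium through inward rectifiers.

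Over the 22200 tested probe sets, each group's replicate 3 array correlated at 0.867 to 0.916 with the arrays of replicates 1 and 2, which correlated at 0.987 to 0.995 among themselves. The median over all probe sets was 38.5 to 41.9. The brightest S100a10 probe set lay between 349 and 3111 and its other 2 below 50. These values do not check the genotype labels, since it is unknown whether the deleted part covers the probes and every array is of a knockout. Pyramidal neuron markers were present at a summed level of 13710 to 26451 over 9 genes, with none of them below 50 in all arrays. Leptomeningeal and fibroblast markers were also present, at 74509 to 98163 over 12 genes in replicates 1 and 2, and 27985 and 43744 in the FLX and VEH replicate 3 arrays. Ptgds alone was 25332 and 38518 in those replicate 3 arrays and 42415 to 45252 in the others, so it made up most of the replicate 3 sums.

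No potassium channel gene passed the test between treatments. In limma's test on log2 values, adjusted over the 22200 tested probe sets by the Benjamini-Hochberg method, 0 of 86 Kcn probe sets had an adjusted p under 0.05, beside 0% of all probe sets, and the adjusted p of each of the 50 genes was 0.9998. With the replicate number as a block the count was also 0, beside 0%, and the smallest adjusted p of a Kcn gene was 0.623. At an unadjusted p under 0.05, limma gave 0 of 50 genes, beside 0.303% of all genes tested. With the replicate block it gave 3 of 50, beside 7.6%, which were Kcnd3 and Kcnj12 (higher in FLX) and Kcnk5 (lower). Kcnj12 reached the minimum of 50 only through its FLX mean (66.4, against 41.3 in VEH), a way of entry that favours a positive difference. In 0 of the 50 genes did the 3 FLX values all lie above or all below the 3 VEH values, beside 2.61% of all genes higher and 1.65% lower.

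The differences leaned to FLX. Of the 50 genes, 35 (70%) had a positive log2 difference, FLX minus VEH, beside 58.1% of all genes tested, and the median was 0.15 beside 0.05. In single genes the difference ran from -0.71 to 1.09. Taken by replicate number, 15 genes were higher in FLX in all 3 pairs, beside 20.2% of all genes, and 2 were lower in all 3, beside 13.6%. By replicate number, the lean was largest in replicate 1. There 45 of 50 genes were higher in the FLX array, beside 51.2% of all genes, with a median of 0.31 against 0.01. In replicate 2 it was 26 of 50, beside 47.9%, with a median of 0.00, and in replicate 3 it was 30 of 50, beside 61.5%, with a median of 0.08. With both replicate 3 arrays left out, 19 genes had FLX values above both VEH values, beside 19.1% of all genes, and 3 below, beside 19.5%, with a median of 0.15. The median was 0.04 with only the VEH array of replicate 3 left out, and 0.07 with only the FLX array of replicate 1 left out, beside 0.01 and 0.04 over all genes. With both replicate 1 arrays left out, the Kcn median was 0.05 beside 0.07 over all genes, and 60% of Kcn genes were positive beside 60.4%, so that the lean over the background was no longer there. The sign of 31 of the 50 genes turned when 1 array or 1 replicate number was left out.

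**Figure D1:**
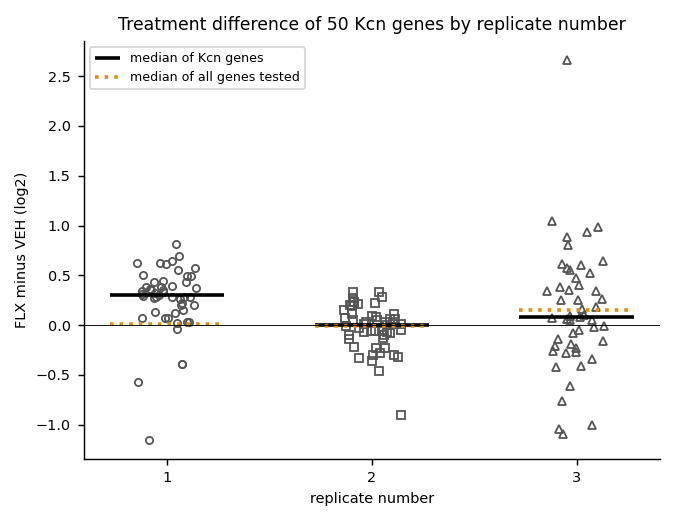
Log2 difference FLX minus VEH of each of the 50 tested Kcn genes (vertical axis) for replicate numbers 1, 2 and 3 (horizontal axis), 1 open symbol per gene, with black bars at the Kcn median and dotted orange bars at the median of all 12213 genes tested. In replicate 1 the Kcn genes lie mostly above 0, at a median of 0.31, while in replicates 2 and 3 they lie on both sides of it, at 0.00 and 0.08.

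Other measures also differed between the replicate 1 arrays, though not only there. The FLX replicate 1 array had a lower summed level of leptomeningeal and fibroblast markers than the VEH replicate 1 array (74509 against 94807, 12 genes on the array) and of pericyte and smooth muscle markers (5911 against 11095, 12 genes, of which Abcc9, Myh11, Des, Notch3 and Higd1b were below 50 in all arrays). It had a higher sum of pyramidal neuron markers (17090 against 14063, 9 genes) and of interneuron markers (23030.0 against 16586, 10 genes). Gad1 made up most of these interneuron sums (17507 against 12828), and all 10 interneuron markers were higher in the FLX array. Over all arrays the leptomeningeal sum ran from 27985 to 97461 in FLX and from 43744 to 98163 in VEH, the pericyte sum from 2479 to 9206 and from 2678 to 11095. The pyramidal sum ran from 13869 to 26451 in FLX and from 13710 to 25624 in VEH, and the interneuron sum from 19803 to 45631 and from 16586 to 35132. In replicate 3 the leptomeningeal sum was again lower in FLX (27985 against 43744, mostly Ptgds at 25332 against 38518). There the pericyte sum was 2479 against 2678, the pyramidal sum 26451 against 25624 and the interneuron sum 45631 against 35132. In replicate 2 the leptomeningeal sums were 97461 against 98163 and the interneuron sums 19803 against 20670. The log2 difference between 3′ and 5′ control probe sets of Gapdh and Actb, which grows as RNA integrity falls, was 2.20 in FLX against 2.33 in VEH for replicate 1, 2.09 against 2.18 for replicate 2 and 2.08 against 2.19 for replicate 3. Their part in the result was not tested. In such bulk samples fewer cells of a type and less RNA per cell cannot be told apart.

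The Kv4 family carries the subthreshold A-type current, and 2 of its 3 tested genes, Kcnd2 and Kcnd3, had differences above the Kcn median. Array values are given below in the order of replicates 1, 2 and 3. Kcnd3, a Kv4 pore subunit, had intensities of 718, 692 and 539 under FLX (mean 649.9 ± 96.4, SD, n = 3) and 458, 653 and 293 under VEH (468 ± 180.4). Each FLX value was above the VEH value of its number, but VEH replicate 2 lay within the FLX range. The log2 difference was 0.54 (SE 0.34, 3 arrays per group), with 0.65, 0.08 and 0.88 in the 3 pairs and an adjusted p of 0.9998 in limma. Kcnd2, the other main Kv4 subunit of cortex, gave 1903, 1963 and 1396 in FLX and 1486, 1961 and 801 in VEH. The 2 groups were level in replicate 2 and apart in replicate 3, for a difference of 0.39 (SE 0.37). Without the VEH replicate 3 array the difference was 0.24 in Kcnd3 and 0.02 in Kcnd2. Kcnd1 differed by 0.02 (SE 0.17), with both groups between 88.5 and 98.04.

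The results on the Kv4 genes turn on Kcnd2 and Kcnd3, so the 250 bases upstream of the annotated start of each are shown, from RefSeq on GRCm38.p6 and written 5′ to 3′ on the gene's strand. Capitals mark a GC box, GGGCGG on either strand. The other motifs searched were the TATA box TATAAA, the E-box CACGTG and the cAMP response element TGACGTCA, each on both strands.
Kcnd2 (chr6:21215096-21215345, plus strand): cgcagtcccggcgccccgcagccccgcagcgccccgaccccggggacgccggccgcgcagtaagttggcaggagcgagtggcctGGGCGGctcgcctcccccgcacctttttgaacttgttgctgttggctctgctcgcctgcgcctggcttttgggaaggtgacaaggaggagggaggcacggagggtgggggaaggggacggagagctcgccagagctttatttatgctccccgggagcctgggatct
Kcnd3 (chr3:105451640-105451889, plus strand): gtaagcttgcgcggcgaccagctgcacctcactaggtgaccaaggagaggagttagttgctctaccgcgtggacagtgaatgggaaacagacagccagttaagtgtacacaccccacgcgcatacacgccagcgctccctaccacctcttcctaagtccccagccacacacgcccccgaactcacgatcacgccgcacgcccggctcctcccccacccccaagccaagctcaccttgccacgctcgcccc
The Kcnd2 window holds 1 GC box, which begins 166 bases before the start, and 68.8% G or C. The Kcnd3 window holds none of the 4 motifs and 62.8% G or C. A promoter was matched for 64 of the 84 members, with 89 windows because some genes have several starts. A GC box was found in 40 of these 89 windows (44.9%) and in 32.7% of all 32851 windows of that length, a TATA box in 3 (3.37%) and 12.4%, an E-box in 5 (5.62%) and 6.02%, and the cAMP response element in 0 and 1.55%. The median G or C content was 58.8% in the Kcn windows and 52.4% in all windows.

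KChIP proteins, encoded by the Kcnip genes, bind the Kv4 N terminus and change its surface level and inactivation. Kcnip4 gave 4242, 3469.5 and 5893 in FLX and 3016, 3307 and 4632 in VEH, a difference of 0.30 (SE 0.29). All 3 pairs were higher in FLX, with overlapping groups. Kcnip1 gave 287, 228 and 911 in FLX and 221, 235 and 459 in VEH, a difference of 0.44 (SE 0.59). Here replicate 3 was the highest array of each group, and without the FLX replicate 3 array the difference was -0.17. Kcnip3 differed by 0.13 and Kcnip2 by -0.05. The transmembrane Kv4 partners Dpp6 and Dpp10, which are no Kcn genes, differed by 0.48 (SE 0.54) and 0.44 (SE 0.47), and neither passed. Dpp10 gave 3672, 3683 and 1907 in FLX and 2371, 3507 and 1241 in VEH.

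Kv1 subunits shape spike threshold in axons and terminals. Their 5 tested genes had differences from 0.11 to 0.24. Kcna1 gave 1853, 1944 and 1928 in FLX and 1492, 2030.4 and 1385 in VEH, the latter spread over a wider range that held all FLX values. The difference was 0.24 (SE 0.22). Kcna2 gave 5416, 5655 and 3140.1 in FLX and 4237, 4929.5 and 3248 in VEH (0.17, SE 0.31), while Kcna6 differed by 0.16 and Kcna4 by 0.11. Kcna5 was dim, at 69.6, 54.4 and 142 in FLX and 57.1, 68.3 and 97.3 in VEH (0.17, SE 0.42). None of these 5 had groups that parted. The cytoplasmic beta subunits of Kv1 had differences of both signs. Kcnab1 gave 2627, 2300.2 and 3917 in FLX and 1933, 1979 and 2960 in VEH, higher in FLX in each pair (0.35, SE 0.30). Kcnab2 gave 1194, 904 and 2808 in FLX and 779, 1060.5 and 5804 in VEH, so that its sign differed between pairs (0.61, -0.23 and -1.05). Its mean was 1635 ± 1026 in FLX and 2548 ± 2823 in VEH (SD, n = 3). Kcnab3 gave 495, 376 and 635 in FLX and 380, 368 and 614 in VEH (0.16, SE 0.31). Kcne4, a single-span regulatory subunit, differed by -0.31 (SE 0.55). Kcne4 was lower in FLX in all 3 pairs, with 156, 200.1 and 72.4 against 205, 250.3 and 84.7.

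Kv3 channels close fast and allow high firing rates, above all in fast-spiking interneurons. Kcnc4 gave 1508, 1388 and 1005 in FLX and 976, 1208 and 837 in VEH. The difference was 0.36 (SE 0.25), and both lower VEH arrays lay below every FLX array. Its probe set is of the s_at type, which can match several transcripts, and a second tested probe set of the gene gave 0.10. Kcnc2 gave 2364, 1884 and 1485 in FLX and 1663, 1823 and 1159.5 in VEH (0.30, SE 0.28). Kcnc1 was the 1 Kv1 to Kv4 pore gene of 11 with a negative difference, at 1488, 1397 and 1589.9 in FLX and 1279, 1928 and 2434 in VEH (-0.29, SE 0.28). Over these 11 genes the median was 0.17, and 5 were higher in FLX in all 3 pairs.

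Silent Kv subunits form no channel alone and modify Kv2 channels. All 5 tested had positive differences, from 0.02 in Kcng1 to 0.47 in Kcnf1, beside 58.1% of all genes. In replicates 1 and 3, 5 of 5 were higher in FLX, beside 51.2% and 61.5% of all genes. In replicate 2 it was 0 of 5, beside 47.9%. In replicate 1, 45 of all 50 Kcn genes were higher. Kcnf1 gave 1594, 1480.3 and 1075 in FLX and 1075, 1722 and 520.4 in VEH, so that the VEH arrays spanned the whole FLX range (SE 0.46). Without the VEH replicate 3 array the Kcnf1 difference was 0.00368. Kcng1 gave 96.5, 76.0 and 179 in FLX and 80.1, 93.6 and 169 in VEH, nearly level in replicate 3. Kcns2 differed by 0.30, Kcnv1 by 0.23 and Kcns3 by 0.04. Kcns3 reached the minimum of 50 only through its FLX mean (50.05, against 48.4 in VEH), which favours a positive sign. Of the M-current genes, Kcnq3 gave 3156, 3154 and 1827 in FLX and 2156, 3047 and 1753 in VEH (0.22, SE 0.33), and Kcnq5 differed by 0.21 (SE 0.27). Of the ether-a-go-go family, Kcnh5 gave 176, 162 and 68.4 in FLX and 114, 129 and 69.0 in VEH (0.31, SE 0.45). Kcnh1 differed by 0.25, Kcnh2 by 0.10 and Kcnh3 by -0.28 (SE 0.34). Kcnh3 gave 175, 178 and 155 in FLX and 129, 217 and 310.4 in VEH. Its probe set is of the x_at type, which can match other transcripts, and more specific tested ones gave -0.10 and -0.23. All 4 ether-a-go-go genes were higher in FLX in replicate 1 and lower in replicate 3.

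**Figure D2:**
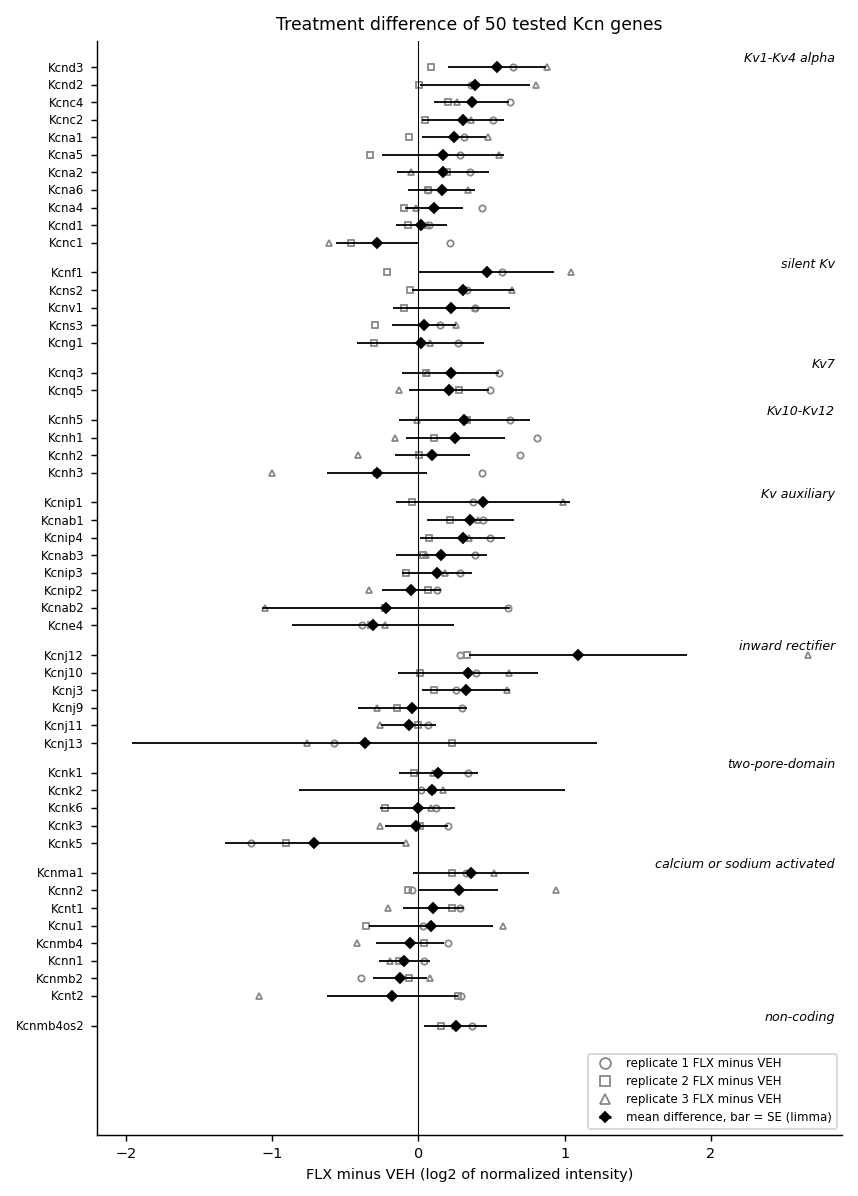
Log2 difference FLX minus VEH (horizontal axis) of the 50 tested Kcn genes, grouped by class, with black diamonds at the mean difference and bars of 1 SE from limma, and open circles, squares and triangles for replicates 1, 2 and 3. Each diamond lies within 2 SE of 0, and the extremes are Kcnj12 at 1.09 and Kcnk5 at -0.71.

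Inward rectifiers were split. Kcnj3, a subunit of the G protein-gated channels that serotonin and GABA receptors open, gave 2783, 2891 and 2151 in FLX and 2325, 2681 and 1412 in VEH (0.33, SE 0.30), higher in FLX in each pair. Kcnj9, its partner subunit, differed by -0.04 (SE 0.37) and Kcnj11, the pore of ATP-sensitive channels, by -0.07 (SE 0.19), at 912, 881 and 914 in FLX and 869.6, 885 and 1099 in VEH. Kcnj12, a strong rectifier, had the largest difference at 1.09 (SE 0.74), with 71.3, 70.6 and 57.3 in FLX and 58.6, 56.2 and 9.04 in VEH (means 66.4 ± 7.86 and 41.3 ± 27.9, SD, n = 3). Only its FLX mean reached the minimum for testing, so the filter itself favoured a positive difference here. The size of the Kcnj12 difference rests on VEH replicate 3, the 1 array below 50. Without this array the difference was 0.20, and with values below 50 set to 50 it was 0.27. Kcnj10, through which astrocytes buffer potassium, gave 117, 169 and 315 in FLX and 88.8, 168 and 205 in VEH (0.34, SE 0.48). Its FLX minus VEH difference was 0.40, 0.01 and 0.62 in the 3 pairs. Astrocyte markers had 9 of 12 genes positive at a median of 0.27, with summed levels of 39109 to 55729 in FLX and 40392 to 47333 in VEH and none below 50 in all arrays. Their part in the Kcnj10 value was not tested.

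K2P leak channels had a median of -0.01 over 5 tested genes. Kcnk5, an acid-sensitive member, was the lowest of all 50 genes at -0.71 (SE 0.61). It gave 57.1, 99.7 and 41.3 in FLX and 127, 187 and 43.8 in VEH (means 66.0 ± 30.2 and 119 ± 71.7, SD, n = 3). Both replicate 3 arrays were below 50 and nearly level, and the groups parted in replicates 1 and 2 (-1.15 and -0.90). With the replicate block limma gave an unadjusted p of 0.0155 and an adjusted p of 0.623. Kcnk1 had the highest difference of the class, 0.14 (SE 0.27), at 2256, 2196 and 1531 in FLX and 1783, 2244 and 1426 in VEH. Kcnk2 differed by 0.09 (SE 0.91), Kcnk3 by -0.02 and Kcnk6 by -0.01.

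Calcium- and sodium-activated channels had 4 of 8 genes positive and a median of 0.01. Kcnma1, the pore of the large-conductance (BK) channel that repolarizes spikes, gave 427, 430 and 244 in FLX and 342, 366 and 170.0 in VEH, higher in FLX in each pair (0.36, SE 0.40). Its other 2 tested probe sets gave 0.61 and 0.41, the same sign. Without the VEH replicate 3 array the Kcnma1 value was 0.01. Kcnmb4, the neuronal BK beta subunit, gave 2256, 1987 and 1424 in FLX and 1957, 1939 and 1904 in VEH (-0.06, SE 0.23). Kcnmb2 lay near the minimum, at 46.8, 51.4 and 54.9 in FLX and 61.4, 53.7 and 52.0 in VEH (-0.13, SE 0.19). Neither BK beta gene had groups that parted. Of the small-conductance genes behind the afterhyperpolarization, Kcnn2 differed by 0.28 (SE 0.27) and Kcnn1 by -0.10 (SE 0.17). Kcnn1 gave 94.0, 85.8 and 87.6 in FLX and 91.7, 94.1 and 100.1 in VEH. Of the sodium-activated genes, Kcnt1 differed by 0.10, and Kcnt2 gave 1637, 1401 and 534 in FLX and 1340.5, 1164 and 1136 in VEH (-0.18, SE 0.45), with FLX replicate 3 far below the other 5 arrays. Kcnu1, a channel known from sperm, gave 93.2, 71.9 and 200.4 in FLX and 91.1, 92.2 and 134 in VEH (0.08, SE 0.42). The non-coding Kcnmb4os2 gave 334, 238 and 266 in FLX and 259, 214 and 224 in VEH (0.26, SE 0.22), higher in FLX in each pair. Its name places it on the strand opposite to Kcnmb4, and the assignment of its probe set is the platform annotation's.

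**Figure D3:**
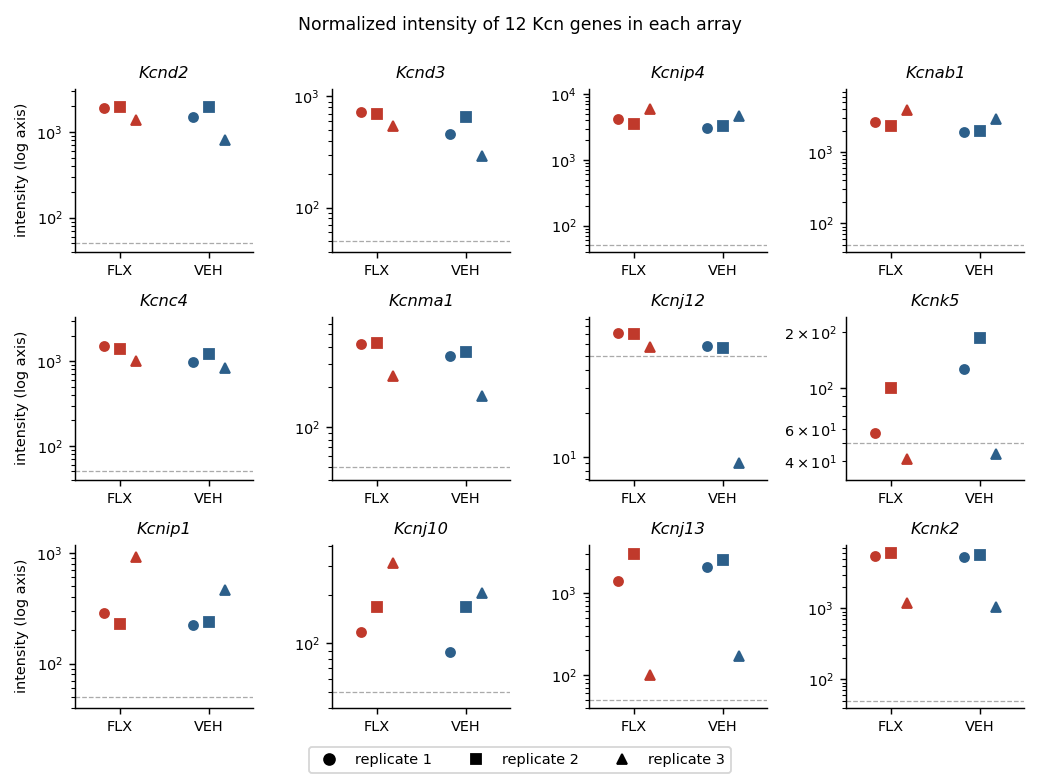
Normalized intensity (vertical log axis) of 12 Kcn genes in the 3 FLX arrays (red) and 3 VEH arrays (blue), with circles, squares and triangles for replicates 1, 2 and 3 and a dashed line at the minimum of 50. FLX and VEH values overlap in each panel. Kcnj13 and Kcnk2 are lowest in replicate 3 of both groups, and Kcnip1 and Kcnj10 are highest there.

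More members passed a test between replicate numbers than between treatments. In limma's F-test over the 3 numbers, with treatment in the fit, 21 of 50 genes passed an adjusted p of 0.05, beside 44.6% of all genes tested, so the share of potassium channel genes was near the background. They were Kcna2, Kcna5, Kcnab1, Kcnab2, Kcnab3, Kcnd2, Kcne4, Kcnf1, Kcng1, Kcnh5, Kcnip1, Kcnj9, Kcnj10, Kcnj13, Kcnk2, Kcnk5, Kcnma1, Kcnq3, Kcns2, Kcnu1 and Kcnv1. Compared with the mean of replicates 1 and 2, replicate 3 had a median of -0.37 over the 50 genes in FLX and -0.27 in VEH, with 34 and 31 genes lower, while all genes tested had 0.06 and -0.10. The mean of the 2 differences had a median of -0.33 over the Kcn genes beside -0.02 over all genes. It was -0.16 with the mean of a gene's probe sets, and -0.19 with each array centred on its median, which moved the value over all genes to 0.13. With no filter on low values it turned to 0.04 over 84 genes, beside 0.13 over all, and 13 of 84 passed the F-test (15.5%), beside 25.9%. Past 2-fold the same way in both groups were 3 genes lower, beside 16.6% of all genes, and 2 higher, beside 5.11%. Across the 50 genes the differences in FLX and VEH correlated at r = 0.81, and across all 12213 genes at r = 0.89. Genes on an array share its RNA, so they are not independent points.

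The lower 3 were Kcnj13, Kcnk2 and Kcne4. Kcnj13, an inward rectifier known from choroid plexus and other epithelia, gave 1400, 3014 and 99.7 in FLX and 2085, 2568 and 169 in VEH (means 1505 ± 1460.1 and 1607 ± 1269, SD, n = 3). Both replicate 3 arrays lay more than 8-fold below every other array, with log2 differences of -4.37 in FLX and -3.78 in VEH and an F-test adjusted p of 0.00014 in limma. The choroid plexus markers Folr1, F5, Otx2, Aqp1 and Slc4a5 were below 50 in all 6 arrays, while the 3 others reached 50 in some or all arrays. Of these Ttr had replicate 3 differences of -1.25 in both groups, Kl -1.75 in FLX and -3.19 in VEH, and Clic6 0.05 and -0.10. Kl was below 50 in replicate 3 of FLX and VEH (14.9 and 9.1), as was Ttr in FLX replicate 3 (49.2), so the sizes of these differences are uncertain. The sum of the 8 markers was 342.5, 343 and 243 in FLX and 462, 443 and 265 in VEH, lowest in replicate 3 of each group. Leptomeningeal and fibroblast markers had replicate 3 medians of -3.60 in FLX and -3.37 in VEH over 12 genes, with Slc6a20a at -5.24 and -4.46. Their part in the Kcnj13 value was not tested. Kcnk2, a mechanically and thermally gated leak channel, gave 5445, 6074 and 1179 in FLX and 5380.3, 5687 and 1051 in VEH, close to equal between treatments in each replicate. Its replicate 3 differences were -2.29 and -2.40 (F-test adjusted p = 0.000205 in limma). Kcne4 had -1.29 and -1.42. Past 2-fold in 1 group and nearest to it in the other were Kcnk5 (-0.87 and -1.81), Kcnma1 (-0.81 and -1.06), Kcnh5 (-1.30 and -0.81) and Kcnv1 (-0.80 and -1.04).

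The higher 2 were Kcnab2 and Kcnip1, both auxiliary subunits, at 1.43 and 2.67 and at 1.83 and 1.01 in FLX and VEH. A second tested probe set of each gene gave 1.59 and 2.21 for Kcnab2 and 1.25 and 1.32 for Kcnip1. Kcng1 (1.06 and 0.97), Kcnj10 (1.16 and 0.75) and Kcna5 (1.21 and 0.64) lay just outside. The auxiliary subunits had replicate 3 medians of 0.59 in FLX and 0.57 in VEH over 8 genes, the 1 class of 9 with both above 0, and the 3 beta subunits Kcnab1, Kcnab2 and Kcnab3 were all higher in replicate 3 of both groups and all passed the F-test. The summed oligodendrocyte markers were higher there as well, at 74068 and 69320.0 in replicate 3 of FLX and VEH against 27504 to 31712 in the other arrays (11 genes, Gjb1 below 50 in all). Mbp and Cnp made up most of that sum, and 4 of the 10 tested markers were lower in replicate 3 of both groups, with Cldn11 at -2.81 and -2.57 and Mag at -0.87 and -1.37. The summed interneuron markers were at 45631 and 35132 against 16586 to 23030.0, with 1 of 10 lower in each group. Gad1 made up most of that sum, at 33896 and 25962 against 12828 to 17507. The pyramidal sum was higher too (26451 and 25624 against 13710 to 17090), with 2 of 9 markers lower in each group. So was the oligodendrocyte precursor sum (10655 and 8103 against 2447 to 4018), with 2 of 6 tested markers lower in FLX and 1 in VEH. Their part in these values was not tested.

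**Figure D4:**
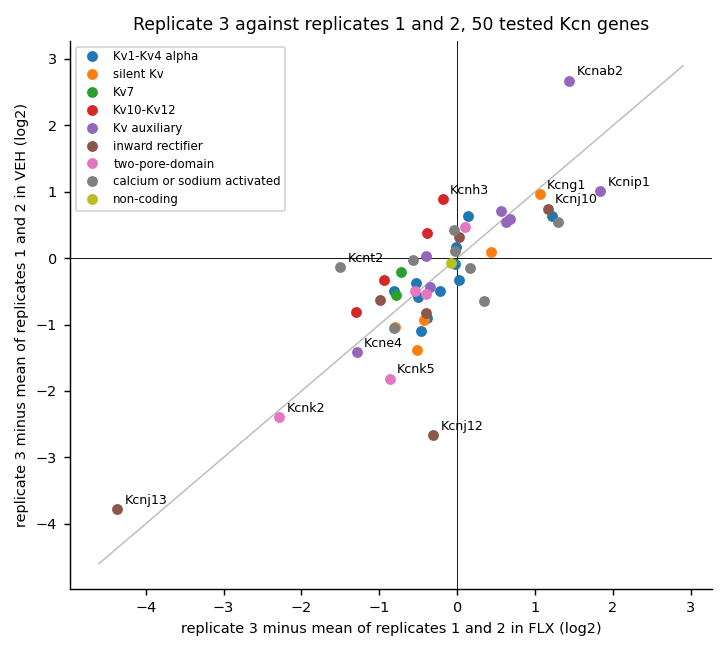
Log2 difference of replicate 3 from the mean of replicates 1 and 2, in FLX (horizontal axis) and VEH (vertical axis), for the 50 tested Kcn genes coloured by class, with the line of equality in grey. Kcnj13 and Kcnk2 lie at the lower left, Kcnab2 and Kcnip1 at the upper right, and Kcnj12 and Kcnt2 off the line.

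The 2 inward rectifiers at opposite ends of the replicate difference, Kcnj13 and Kcnj10, have the following 250 bases upstream of their annotated start, from RefSeq on GRCm38.p6 and in the direction of the gene. Capitals mark the same 4 motifs.
Kcnj13 (chr1:87394730-87394979, minus strand): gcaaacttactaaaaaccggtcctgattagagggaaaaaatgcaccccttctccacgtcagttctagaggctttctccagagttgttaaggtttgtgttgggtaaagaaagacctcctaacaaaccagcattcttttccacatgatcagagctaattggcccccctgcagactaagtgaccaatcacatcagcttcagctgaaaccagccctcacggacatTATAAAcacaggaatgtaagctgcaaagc
Kcnj10 (chr1:172340960-172341209, plus strand): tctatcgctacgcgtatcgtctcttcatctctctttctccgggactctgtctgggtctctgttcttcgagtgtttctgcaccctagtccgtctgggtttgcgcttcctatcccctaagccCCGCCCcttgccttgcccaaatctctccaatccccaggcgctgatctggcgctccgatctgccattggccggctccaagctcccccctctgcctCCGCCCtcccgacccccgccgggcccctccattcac
The Kcnj13 window holds 1 TATA box, which begins 29 bases before the start, and 45.2% G or C. The Kcnj10 window holds 2 GC boxes, which begin 130 and 36 bases before the start, on the strand opposite to the gene, and 62.0% G or C. These matches describe letters and not bound factors.

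Of the 34 members below the minimum, 30 reached 50 in no array, and their values ran from 3.39 to 57.4. They included 9 of 15 inward rectifiers, among them Kcnj8, which marks brain pericytes (9.9 to 16.2), Kcnj2 (7.2 to 11.5), Kcnj6 (14.1 to 25.7), which joins Kcnj3 in neuronal G protein-gated channels, and Kcnj16 (18.1 to 44.1), the astrocyte partner of Kcnj10. They also included 7 of 12 K2P genes, 4 of 9 silent subunits and Kcnn3 among the small-conductance genes (7.17 to 9.95). A value this low is not a measure of absence, since it depends on the probes.

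For 27 members more than 1 probe set was tested, and in 7 of them the probe sets differed in sign between treatments, which were Kcna1, Kcna2, Kcnd2, Kcnip1, Kcnk1, Kcnn1 and Kcnv1. For Kcnd2 the 3 probe sets gave 0.39, 0.28 and -0.13.

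Genes that work with potassium channels but are not named Kcn were described from 8 lists. Of 50 genes listed 44 were on the array and 38 tested, of which 0 passed limma's adjusted threshold and 0 an unadjusted p under 0.05, beside 0% and 0.303% over all. Of the 38, 30 were positive, beside 58.1% of all genes, with a median of 0.13 beside 0.05. In 2 of the 38, Cntnap2 and Ppp2ca, each FLX value lay above each VEH value, beside 2.61% of all genes. In the Kv1 clustering list, 8 of 9 were positive, and Cntnap2, which anchors Kv1 channels beside the nodes, gave 736, 710 and 817 in FLX and 494, 703 and 447 in VEH (0.49, SE 0.24). Among regulators of G protein-gated channels 8 of 10 were positive, with Rgs7 at 0.39 (SE 0.21). Among BK partners 2 of 3 were positive, and Lrrc38, a BK gamma subunit, was at -0.59 (SE 0.39). Of the Kv2 partners 3 of 5 were positive, with Amigo1, a Kv2 auxiliary subunit, at -0.33, and of the K2P partners 2 of 4, with Arf6 at -0.28. All 4 tested Kv7 regulators were positive, with Ppp2ca at 0.14, and Abcc8, the sulfonylurea receptor of neurons, was at 0.01.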

How the data were processed

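Ribosome-bound RNA of 6 samples (3 FLX, 3 VEH) was measured on 1-colour Affymetrix mouse arrays from 15 ng of RNA after 2-cycle amplification, per the labels' protocols. The deposited values are linear probe set intensities normalized by GCRMA, per the submitters' processing notes, with version and settings not given in the sources used here. Such intensities compare arrays for a probe set, not probe sets with each other, and the number of arrays limits the precision.

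Of 45101 probe sets, 64 controls were left out. By the platform annotation 34945 of the others have 1 gene symbol, 932 several and 9160 none. All 84 Kcn symbols matched the RefSeq table. Probe sets with a mean of 50 or more in at least 1 group (22200) were tested on log2 values without a pseudocount, using limma 3.58.1 in R 4.3.3 with treatment as the only term, moderated two-sided tests and Benjamini-Hochberg adjustment at 0.05. The fit was checked on simulated data with independent noise in each array and no replicate 3 shift. Recovery was required only at a much smaller spread than observed, so the check does not show the power of the fit in these data. Figures used matplotlib 3.10.9. A gene's brightest probe set stands for it. SE is limma's, SD is over 3 arrays. Whether replicates came from separate animals is stated only as independent TRAP replicates, so p-values measure the spread between these samples.

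FLX and VEH arrays share replicate numbers. Deviations from group means correlated at r = 0.70, 0.84 and 0.87 between equal numbers, over the limit of 0.1, so they were treated as paired in an alternative with the replicate number as a block, although VEH replicate 1 also correlated with FLX replicate 2 at 0.76. The members, lists, rules and tests were chosen with earlier results of these data known. Values per array are given for the 10 genes with the smallest p in each direction, those without overlap, the 8 highest and 8 lowest in replicate 3, the extremes of each class, and some other members chosen after their values were seen. The alternatives were the block, other filters and floors, a pseudocount, array centring, other choices of probe set, another moderation and leaving out arrays singly or by number.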

Additional observations from a re-analysis of the deposited data

How the results depend on the processing

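In every setting run, 0 Kcn genes passed between treatments (limma, adjusted p), with 0 to 4 at an unadjusted p under 0.05, and the median difference was above 0, from 0.04 to 0.22. With the replicate block 35 genes were positive as without it. The number of genes whose groups do not overlap was 2 of 84 with no filter, beside 3.78% of all genes. It was 1 of 50 with median centring, beside 3.66%, and 1 of 50 with the mean of probe sets, beside 3.82%. With arrays left out, where fewer values must part, it was 1 to 22 of 50, beside 7.68% to 38.6% of all genes. It was 15 without FLX replicate 3, beside 11.1%, and 22 without both replicate 3 arrays, beside 38.6%. For replicate number, 13 genes passed with no filter, where more probe sets enter the adjustment. The replicate 3 median was 0.0435 with no filter, -0.42 with the stricter filter, -0.19 with median centring, -0.16 with the mean of probe sets and -0.24 with specific probe sets, and the cause was not tested.

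Signs of small differences turned in Kcng1 with median centring (-0.00715) and in Kcnk1 with the mean of probe sets (-0.015). With arrays left out, 31 of 50 signs turned, 15 of them in members given here only by their difference, such as Kcnn2 (-0.05 to 0.45). Among the members with values per array, the range spanned 0 for Kcna5 (-0.24 to 0.46), Kcnab2 (-0.78 to 0.67), Kcnab3 (-0.0308 to 0.39), Kcne4 (-0.79 to 0.12), Kcng1 (-0.34 to 0.34), Kcnh3 (-0.64 to 0.0741), Kcnip1 (-0.17 to 0.83), Kcnj10 (-0.046 to 0.67), Kcnj11 (-0.14 to 0.0409), Kcnj13 (-1.63 to 1.09), Kcnk1 (-0.026 to 0.32), Kcnk2 (-0.71 to 0.86), Kcnmb2 (-0.23 to 0.00634), Kcnmb4 (-0.20 to 0.13), Kcnt2 (-0.48 to 0.32) and Kcnu1 (-0.35 to 0.39). Members near the minimum of 50, such as Kcnj12, Kcnk5, Kcnmb2 and Kcns3, are limited by their low signal.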
